A study of Mus musculus with 12 samples.

Results

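The levels of 9 genes that release, break down or sense extracellular ATP and adenosine were followed through 12 B16-F10 melanomas. These were 9 of the 23420 genes in the deposited count table. Slc17a9 was chosen by its measured fall with anti–PD-1 in obese mice, and Entpd1, Nt5e, Adora2a, Adora2b, P2rx4, P2rx7, Ada and Adk were added for their roles in the same pathway. The fold change of Slc17a9 in obese mice therefore describes how it was picked and was not tested here, nor was any comparison of Slc17a9 that uses tumors of obese mice.

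ATP is loaded into secretory vesicles by the transporter encoded by Slc17a9 and released from the cell, where it acts as a danger signal on the ion channels P2X4 and P2X7. On the cell surface CD39 (Entpd1) trims ATP and ADP to AMP, and CD73 (Nt5e) turns AMP into adenosine. Adenosine signals through G protein–coupled receptors such as those encoded by Adora2a and Adora2b, which dampen T cells and myeloid cells in tumors. Adenosine is removed by deamination to inosine (Ada) or by phosphorylation back to AMP (Adk).

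B16-F10 is a mouse melanoma line, and the cells were grown under the skin of the flank of male C57BL/6J mice. Obese mice had eaten a cholesterol-supplemented Western diet for 15 weeks from a few weeks of age, and nonobese mice a matched control diet. Once tumors could be felt, mice of each diet received the anti–PD-1 antibody 29F.1A12 or the isotype control antibody 2A3, both at 10 mg/kg. Each of the 4 combinations of diet and antibody was represented by 3 tumors, referred to by diet and then antibody. Libraries of mRNA were made from total RNA of frozen tumor tissue that was not sorted into cell types, so fewer cells of a type and less RNA per cell cannot be told apart. All mice carried the same tumor line, and every tumor was a bulk mixture of melanoma and host cells. Counts per tumor summed to between 14022929 and 33871843. The 10 melanocytic marker genes were detected in every group and together made up 35505 to 42303 counts per 1000000 (CPM) in each tumor, with overlap among all groups.

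All 9 genes passed the filter on low counts, and the lowest single value was 6 counts, for Adora2b in an obese isotype tumor. The other genes of low abundance were Slc17a9 (13 to 85 counts per tumor), Nt5e (13 to 43) and Adora2a (12 to 57). Levels per kilobase of exon were compared to put the genes in order, as CPM per kilobase averaged over 12 tumors. P2rx4 was highest at 25.8 ± 1.80 (SD, n = 12), followed by Adk at 15.8 ± 1.61. P2rx7 (6.30 ± 1.15) and Ada (5.27 ± 0.824) came next, and their ranges over the tumors overlapped. Entpd1 was at 1.58 ± 0.575, Slc17a9 at 0.972 ± 0.421, Adora2a at 0.492 ± 0.132, Adora2b at 0.400 ± 0.130 and Nt5e at 0.284 ± 0.0818. Each of these 5 genes overlapped in range with its neighbor in the order, whereas P2rx4, Adk and the pair of P2rx7 and Ada were set apart from the genes below them. The ATP channel genes and the intracellular adenosine kinase gene were thus measured well above the genes for adenosine production and sensing.

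Promoter sequences are shown for Entpd1 and Ada because these were the genes other than Slc17a9 whose 2 responses differed at an unadjusted P below 0.05. RefSeq promoter entries (GRCm38.p6) were matched for 7 of the 9 genes. Slc17a9 and Adora2a were not matched. Each sequence is the 250 bases before an annotated start, 5′ to 3′ on the strand of the gene. Capitals mark GGGCGG (GC box), TTCNNNGAA (the gamma-activated sequence bound by STAT factors) and GAGGAA (a site type of the myeloid factor PU.1), searched on both strands without overlap between different motifs in these 3 windows. Entpd1 has 2 starts, with windows at chr19:40612116-40612365 and chr19:40659520-40659769 on the plus strand, and Ada has 1, at chr2:163750240-163750489 on the minus strand.
Entpd1 first start: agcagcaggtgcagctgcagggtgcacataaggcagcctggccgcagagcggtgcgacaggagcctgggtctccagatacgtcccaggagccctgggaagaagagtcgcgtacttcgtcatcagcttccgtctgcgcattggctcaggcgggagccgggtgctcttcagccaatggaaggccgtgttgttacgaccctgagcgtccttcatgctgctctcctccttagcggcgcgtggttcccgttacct
Entpd1 second start: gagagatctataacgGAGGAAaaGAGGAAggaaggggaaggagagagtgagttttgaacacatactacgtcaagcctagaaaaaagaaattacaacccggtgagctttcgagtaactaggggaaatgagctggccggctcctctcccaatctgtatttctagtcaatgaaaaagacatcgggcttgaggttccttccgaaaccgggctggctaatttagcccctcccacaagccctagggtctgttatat
Ada: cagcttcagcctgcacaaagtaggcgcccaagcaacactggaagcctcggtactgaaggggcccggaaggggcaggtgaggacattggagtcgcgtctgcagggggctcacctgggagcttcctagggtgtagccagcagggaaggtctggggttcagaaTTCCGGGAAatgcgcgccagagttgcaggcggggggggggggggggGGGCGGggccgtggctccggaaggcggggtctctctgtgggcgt

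The second Entpd1 window held 2 matches to GAGGAA, starting 235 and 227 bases before the start, and the first window held none of the 3 motifs. The Ada window held 1 match to TTCNNNGAA, starting 90 bases before the start, and 1 GC box starting 44 bases before it. Over 32851 promoter windows of this length, 23.3% held GAGGAA, 7.02% held TTCNNNGAA and 32.7% held a GC box. The window of P2rx4, the steadiest gene, held none of the 3 motifs. A match describes the letters in the window and is not evidence of binding.

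Slc17a9 lies on chromosome 2, from 180725263 to 180742280 on the plus strand (GRCm38), and is protein coding. In nonobese mice, Slc17a9 was at 2.22, 1.62 and 1.08 CPM with isotype and at 2.74, 2.63 and 3.34 CPM with anti–PD-1. All 3 treated tumors lay above all 3 isotype tumors, a pattern that 5.81% of all genes tested also showed. The log2 fold change was 0.81 (standard error 0.30, 95% interval 0.15 to 1.47), with an unadjusted P of 0.0194. It did not pass after adjustment over all genes (FDR 0.859 from edgeR's quasi-likelihood F-test). Leaving out single tumors moved the log2 fold change between 0.60 and 1.09. The highest value came without the first nonobese isotype tumor (FDR 0.317). Without the third nonobese isotype tumor (0.60, P 0.0814) or the third nonobese anti–PD-1 tumor (0.68, P 0.0606), the unadjusted P rose above 0.05.

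In obese mice the direction was the opposite. Slc17a9 was at 3.20, 3.57 and 2.77 CPM with isotype and at 0.917, 1.28 and 1.19 CPM with anti–PD-1. These values are the reason for its choice. The log2 fold change was -1.48 (standard error 0.32), a 2.79-fold lower level. The treated tumors lay below all isotype tumors, as for 7% of all genes tested.

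Ordered by their mean, the groups ran from obese isotype (3.18 ± 0.399 CPM, SD, n = 3) through nonobese anti–PD-1 (2.91 ± 0.384) and nonobese isotype (1.64 ± 0.569) to obese anti–PD-1 (1.13 ± 0.188). The upper pair overlapped in range, as did the lower pair, and no tumor of the upper pair reached down to a tumor of the lower pair. Obese isotype tumors were above nonobese isotype tumors by 0.94 on the log2 scale (standard error 0.31). Obese anti–PD-1 tumors were below nonobese anti–PD-1 tumors, with a log2 fold change of -1.35 (standard error 0.32). Groups that do not overlap in these directions were found for 10.4% and 7.06% of all genes tested. The 2 responses differed by -2.29 on the log2 scale (standard error 0.44). These 3 contrasts share tumors with the comparison used to pick the gene and are given without a test. The summed level of 10 macrophage markers had its higher group medians in nonobese isotype (437 CPM) and obese anti–PD-1 tumors (543 CPM) and its lower ones in nonobese anti–PD-1 (196 CPM) and obese isotype tumors (251 CPM), and the part of these cells in the Slc17a9 values was not tested.

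**Figure D1:**
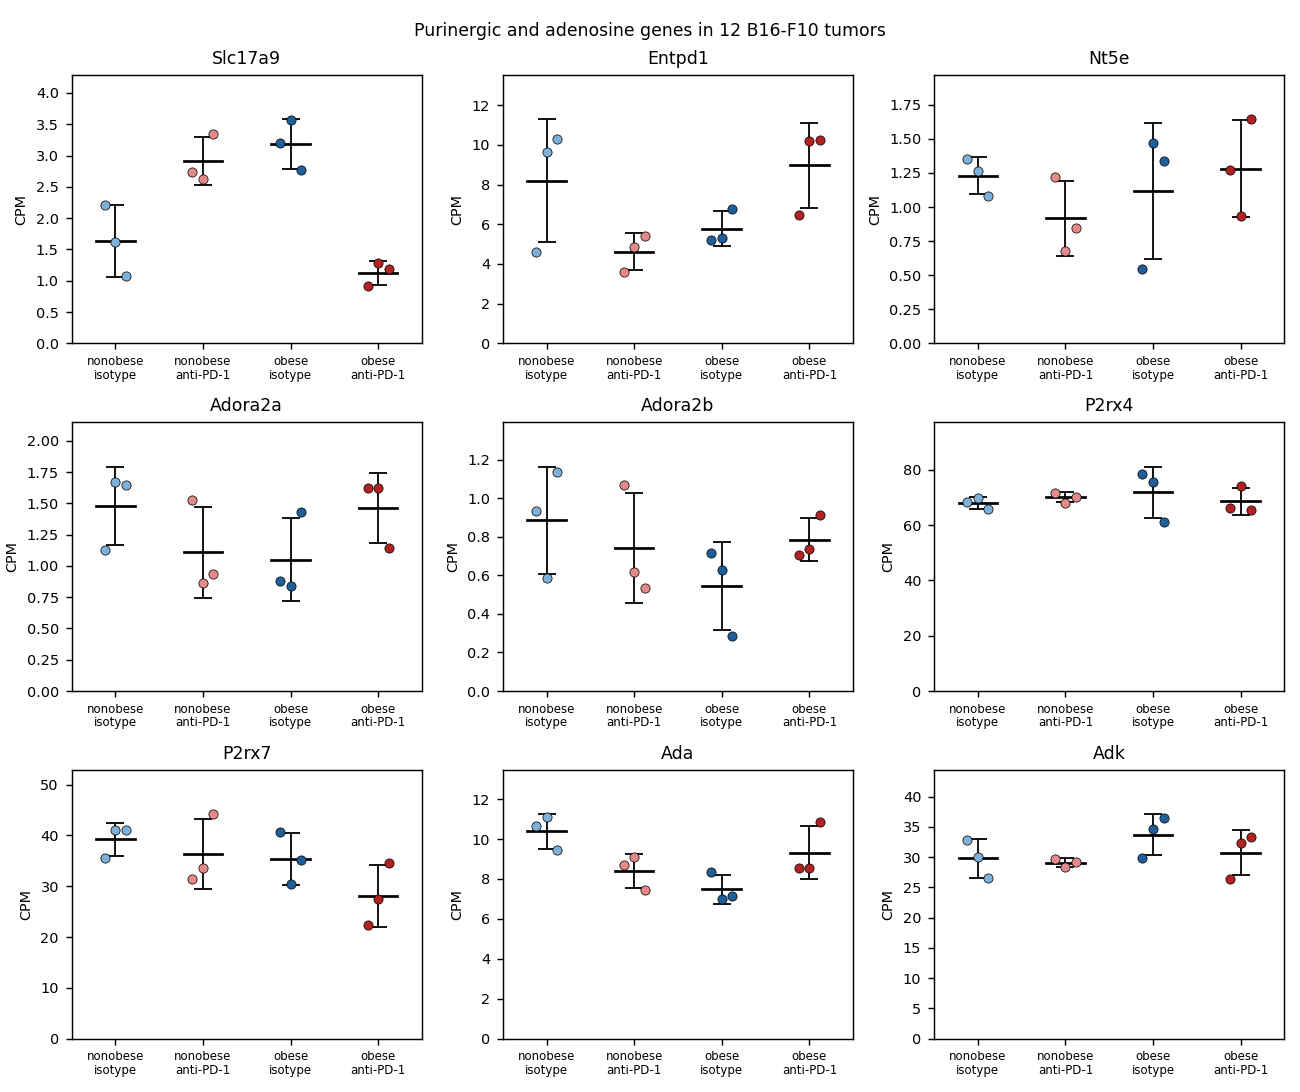
Level of each of the 9 genes (y axis, CPM from 0) in the 4 groups (x axis), with 1 point per tumor and black bars for the mean ± SD (n = 3). Slc17a9 is high in nonobese anti–PD-1 and obese isotype tumors and low in the other groups, Entpd1 runs the other way, and P2rx4 and Adk stay level.

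The 5 genes whose log2 CPM followed Slc17a9 most closely over the 12 tumors were Swt1, Kansl1l, Oraov1, Zbtb11 and Herpud1. Their Pearson correlations ran from 0.909 (Herpud1) to 0.927 (Swt1) among 11954 genes with a mean of at least 1 CPM. These genes were picked for the correlation, which is given as a description. After the group means were subtracted, the correlations ran from 0.764 to 0.869. These within-group values are part of the correlation by which the genes were picked. The 5 genes moved less than Slc17a9. Their log2 fold changes with anti–PD-1 were 0.20 to 0.44 in nonobese mice and -0.76 to -0.45 in obese mice. Among the 7 other members with a mean of at least 1 CPM, which leaves out Adora2b, the correlation with Slc17a9 was lowest for Entpd1 (-0.72) and Adora2a (-0.70) and highest for P2rx4 (0.39). After the group means were subtracted, it was -0.38 for Entpd1, -0.53 for Adora2a and 0.44 for P2rx4, and the highest was that of Adk (0.64).

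**Figure D2:**
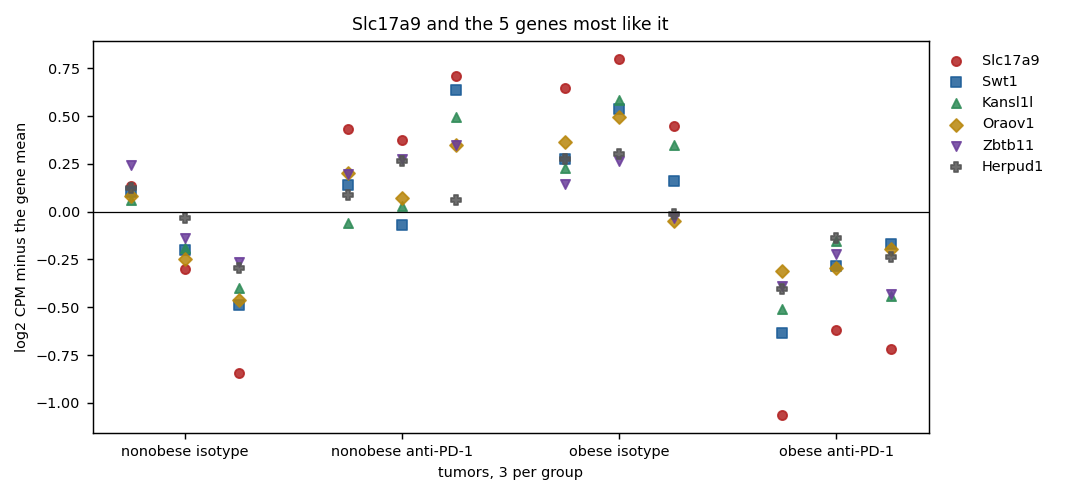
Log2 CPM minus the mean of each gene (y axis) in the 12 tumors (x axis, 3 per group), with 1 symbol per gene. Swt1, Kansl1l, Oraov1, Zbtb11 and Herpud1 rise and fall with Slc17a9 over a narrower range.

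The first extracellular step is carried out by CD39. Entpd1 lies on chromosome 19, from 40612366 to 40741602 on the plus strand. In nonobese mice, Entpd1 was at 4.62, 9.64 and 10.3 CPM with isotype and at 3.61, 4.86 and 5.40 CPM with anti–PD-1. The groups overlapped through the first isotype tumor, which was well below the other isotype tumors. The log2 fold change was -0.82 (standard error 0.29), with an unadjusted P of 0.0156 and an FDR of 0.845 from edgeR. Without that isotype tumor it was -1.10 (FDR 0.149). The unadjusted P rose above 0.05 without the second isotype tumor (-0.67, P 0.0673), the third isotype tumor (-0.63, P 0.0771) or the first anti–PD-1 tumor (-0.67, P 0.0638).

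In obese mice, Entpd1 was at 5.22, 5.32 and 6.78 CPM with isotype and at 6.49, 10.2 and 10.2 CPM with anti–PD-1. Treated tumors were again spread, with 1 within the isotype range and the other two well above it. Anti–PD-1 gave a log2 fold change of 0.64, with a standard error of 0.30, an unadjusted P of 0.0494 and an edgeR FDR of 0.657. A direct test of the difference between the 2 responses gave 1.45 on the log2 scale (standard error 0.42, 95% interval 0.56 to 2.35). Its unadjusted P was 0.00387, its FDR was 0.172 from edgeR and 0.0428 from DESeq2's Wald test, so the call after adjustment depended on the tool. Leaving out single tumors kept the difference between 1.28 and 1.74.

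Comparing the diets, Entpd1 did not separate isotype-treated tumors of obese and nonobese mice (log2 fold change -0.50, standard error 0.29, FDR 0.473 from edgeR). With anti–PD-1, all 3 obese tumors were above all 3 nonobese tumors, as for 6.54% of all genes tested. This was a log2 fold change of 0.96, with a standard error of 0.30 and an edgeR FDR of 0.227. Leaving out single tumors moved it between 0.81 (without the first nonobese anti–PD-1 tumor) and 1.15 (without the first obese anti–PD-1 tumor), and it was also above 1 without the third nonobese anti–PD-1 tumor (1.10).

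CD39 is carried by macrophages, among other cells. The summed level of the 10 macrophage markers, all of them detected in every group, was 248, 534 and 437 CPM in nonobese isotype tumors and 164, 196 and 237 CPM in nonobese anti–PD-1 tumors. It was 338, 199 and 251 CPM in obese isotype tumors and 283, 543 and 547 CPM in obese anti–PD-1 tumors. In both the nonobese isotype and the obese anti–PD-1 group, the first tumor was lowest for Entpd1 and for these markers, and also for the endothelial, T and NK cell, fibroblast and skeletal muscle markers. The adipocyte markers were lowest in the first tumor of the nonobese isotype group but not of the obese anti–PD-1 group. In the nonobese anti–PD-1 group, the first tumor was lowest for Entpd1 and for the macrophage, T and NK cell, fibroblast, adipocyte and skeletal muscle markers. It was not the lowest there for the endothelial markers. In the obese isotype group, the first tumor was lowest for Entpd1 and for the T and NK cell, adipocyte and skeletal muscle markers. It was highest there for the macrophage and endothelial markers. The first tumor was thus the lowest for Entpd1 in each group. For the difference between responses, 10 of 10 macrophage markers changed more than 2-fold at a P below 0.05 before adjustment, as did 5.76% of all genes tested. Endothelial markers, which mark another CD39-bearing cell type, summed to 641 to 678 CPM in nonobese isotype tumors and to 547 to 566 CPM with anti–PD-1. In obese mice they summed to 376 to 598 CPM with isotype and to 476 to 620 CPM with anti–PD-1, and 1 of 10 passed both thresholds for the difference between responses. Of the other lists, 7 of 10 fibroblast, 9 of 10 adipocyte and 8 of 8 T and NK cell markers passed both thresholds for that difference. All of them were higher, as were 4.93% of all genes tested. The count was only 1 of 10 for skeletal muscle markers, also higher. The part of these cell types in the Entpd1 values was not tested.

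**Figure D3:**
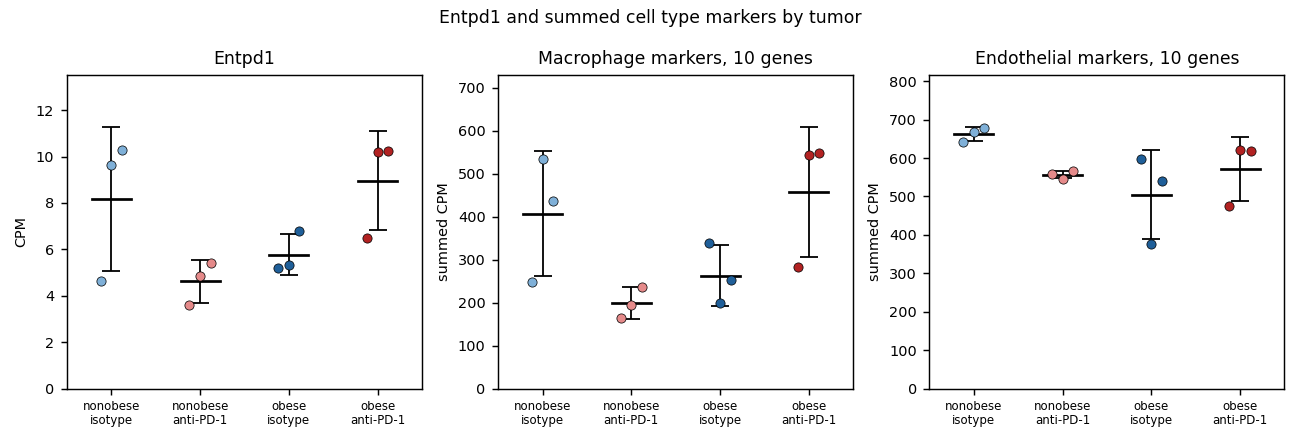
Entpd1 (left, CPM) and the summed CPM of 10 macrophage markers (middle) and 10 endothelial markers (right) in the 4 groups, with 1 point per tumor and black bars for the mean ± SD (n = 3). The first nonobese isotype tumor (4.62 CPM Entpd1, 248 CPM markers) and the first obese anti–PD-1 tumor (6.49 and 283 CPM) are the lowest of their groups in all 3 panels, whereas the first obese isotype tumor is lowest for Entpd1 (5.22 CPM) and highest for macrophage markers (338 CPM).

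The second step is carried out by CD73. Nt5e (chromosome 9, 88327197 to 88372092, plus strand) was at 1.35, 1.26 and 1.08 CPM in nonobese isotype tumors and at 1.22, 0.680 and 0.847 CPM with anti–PD-1. In obese mice it was at 0.547, 1.47 and 1.34 CPM with isotype and at 1.27, 0.935 and 1.64 CPM with anti–PD-1. The groups overlapped in both diets. The log2 fold changes were -0.44 (95% interval -1.35 to 0.46) and 0.22 (-0.70 to 1.14), and each interval reached past a 2-fold change on one side. The direction in obese mice turned to -0.11 without the first obese isotype tumor.

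The adenosine receptor genes were near the lower end of what was measured. Adora2a (chromosome 10, 75316877 to 75334784, plus strand) ranged from 1.12 to 1.68 CPM in nonobese isotype tumors and from 0.866 to 1.52 CPM with anti–PD-1. In obese mice it ranged from 0.839 to 1.43 CPM with isotype and from 1.14 to 1.62 CPM with anti–PD-1. Its log2 fold changes were -0.42 (standard error 0.37) and 0.46 (standard error 0.38). Adora2b (chromosome 11, 62248984 to 62266453, plus strand) showed log2 fold changes of -0.25 (standard error 0.45) in nonobese and 0.54 (standard error 0.48) in obese mice. Its lowest group was obese isotype, with 0.715, 0.630 and 0.286 CPM. Neither receptor gene separated any of the groups compared, and differences between responses of 0.89 for Adora2a (95% interval -0.26 to 2.03) and 0.79 for Adora2b (-0.63 to 2.20) were not resolved at this depth.

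P2rx7 and P2rx4 are neighbors on chromosome 5, from 122643911 to 122691432 and from 122707544 to 122729738, on the same strand and 16111 bases apart. P2rx4 was the steadiest of the 9 genes, with 61.3 to 78.4 CPM over all tumors, a 1.28-fold range. Its log2 fold change was 0.04 (95% interval -0.19 to 0.27) in nonobese and -0.07 (-0.30 to 0.16) in obese mice. P2rx7, which encodes the channel that opens at high ATP, was at 35.5, 41.0 and 41.1 CPM in nonobese isotype tumors and at 31.4, 33.5 and 44.1 CPM with anti–PD-1. In obese mice it was at 40.7, 30.5 and 35.1 CPM with isotype and at 22.4, 27.4 and 34.6 CPM with anti–PD-1. The groups overlapped within each diet. The log2 fold change in obese mice was -0.33 (95% interval -0.71 to 0.04, FDR 0.697 from edgeR), and that in nonobese mice was -0.11 (-0.48 to 0.26).

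The last step is adenosine removal. Ada (chromosome 2, 163726584 to 163750239, minus strand) was at 10.6, 11.1 and 9.43 CPM in nonobese isotype tumors and at 8.69, 9.09 and 7.45 CPM with anti–PD-1. All treated tumors lay below all isotype tumors, as for 5.37% of all genes tested. In obese mice Ada was at 8.33, 6.99 and 7.16 CPM with isotype and at 8.53, 8.56 and 10.9 CPM with anti–PD-1. Here all treated tumors lay above all isotype tumors, as for 5.45% of all genes tested. The log2 fold changes were small, at -0.30 (standard error 0.17) and 0.31 (standard error 0.17). They differed by 0.62 on the log2 scale (95% interval 0.11 to 1.12, unadjusted P 0.0206), which did not pass after adjustment (FDR 0.296 from edgeR). Among isotype-treated tumors, all obese tumors were below all nonobese tumors for Ada, as for 9.02% of all genes tested. This log2 fold change was -0.47, with a standard error of 0.17, an unadjusted P of 0.0142 and an edgeR FDR of 0.296. ADA is high in lymphocytes, and the 9 T and NK cell markers in the table summed to 1.68 to 2.39 CPM in obese isotype tumors and to 5.71 to 24.9 CPM in obese anti–PD-1 tumors. In nonobese mice they summed to 2.02 to 4.76 CPM with isotype and to 0.559 to 2.63 CPM with anti–PD-1. Their part in the Ada values was not tested.

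Adk (chromosome 14, 21052574 to 21448569, plus strand) did not follow Ada. It was at 32.8, 30.04 and 26.5 CPM in nonobese isotype tumors, at 29.7, 28.4 and 29.2 CPM with anti–PD-1, at 29.9, 34.7 and 36.4 CPM in obese isotype tumors and at 26.4, 32.3 and 33.4 CPM with anti–PD-1. Its log2 fold changes were -0.03 (95% interval -0.30 to 0.23) and -0.13 (-0.40 to 0.14), and the groups overlapped in every comparison.

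**Figure D4:**
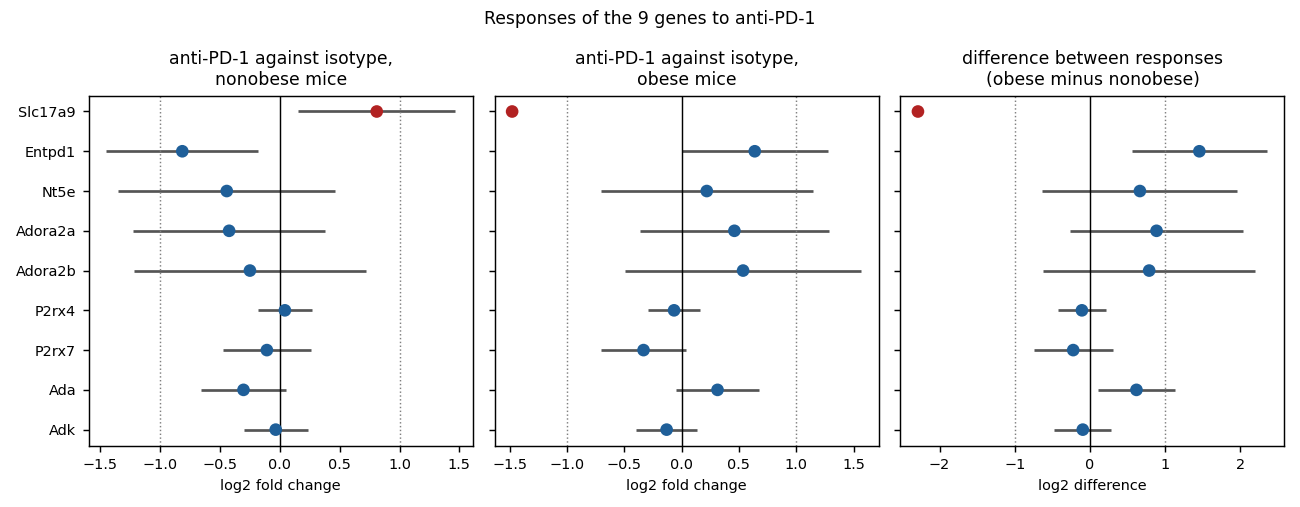
Log2 fold change with anti–PD-1 in nonobese mice (left) and obese mice (middle) and the difference between them (right) for the 9 genes, as points with 95% intervals from edgeR. Dotted lines mark a 2-fold change, and Slc17a9, in red, was chosen by the middle panel and has no interval in the middle and right panels. The intervals of Entpd1 (0.56 to 2.35) and Ada (0.11 to 1.12) lie above 0 in the right panel.

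Counted over the members, 0 of 9 genes passed both thresholds (more than 2-fold, and P below 0.05 before adjustment) in the nonobese response, where 2.42% of all genes tested did. In the comparisons that use obese tumors only the 8 genes other than Slc17a9 were counted. Of these, 0 passed in the obese response (2.44% of all genes). For obese against nonobese tumors, 0 of 8 passed under isotype (1.37% of all genes) and 0 of 8 under anti–PD-1 (4.25%). For the difference between responses 1 of 8 passed, Entpd1, which was higher (5.76% of all genes). At a P below 0.05 without the fold threshold, 2 of 9 members were counted in the nonobese response, against 5.23% of all genes. With the same 8 genes, 1 was counted in the obese response (7.57% of all genes), 1 in diet under isotype (13.3%), 1 in diet under anti–PD-1 (10.3%) and 2 in the difference between responses (12.9%). At an FDR below 0.05 by edgeR, 0 members passed among those tested in each comparison. The share of all genes by edgeR was 0% in each comparison except obese against nonobese under anti–PD-1, where it was 0.382%. DESeq2 called Entpd1 in the difference between responses, where it called 2.16% of all genes to which it gave an FDR. Of the 8 members other than Slc17a9, 5 had lower values in nonobese and higher values in obese mice with anti–PD-1 (62.5%), against 30.4% of all genes tested. This counts signs whether or not they passed a test, and that of Nt5e in obese mice turned when the first obese isotype or the third obese anti–PD-1 tumor was left out. The median log2 fold change of these 8 genes was -0.28 in nonobese and 0.27 in obese mice, and that of all genes was 0.02 and -0.01.

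The wider pathway was followed with a list of 71 further genes for ATP release, nucleotide breakdown, purine salvage, nucleoside transport and the remaining purine receptors. Of these, 47 passed the filter and 24 did not, among them the adenosine receptor genes Adora1 and Adora3. In the nonobese response 1 gene was higher (0.115% of all genes tested were) and 4 were lower (2.31%). In the obese response 2 were higher (2.24%) and 0 were lower (0.206%). For obese against nonobese tumors, 1 was higher (0.244%) and 1 lower (1.12%) under isotype. Under anti–PD-1, 5 were higher (3.69%) and 1 was lower (0.565%). For the difference between responses, 7 were higher (4.93%) and 2 lower (0.832%). At a P below 0.05 without the fold threshold, 5 of the 47 genes were counted in the nonobese response (5.23% of all genes) and 7 in the obese response (7.57%). The counts were 4 in diet under isotype (13.3%), 8 in diet under anti–PD-1 (10.3%) and 11 in the difference between responses (12.9%). None passed an FDR of 0.05 by edgeR. DESeq2 called 1 of the 47, P2ry6, in the difference between responses, where it called 2.16% of all genes to which it gave an FDR. The median log2 fold change of the list was -0.03 in nonobese and 0.05 in obese mice, and that of the difference between responses was 0.13, against -0.04 for all genes. Of the 47 genes, 23 had lower values in nonobese and higher values in obese mice (48.9%, against 30.4% of all genes tested), counting signs alone. Most marker lists ran the same way in their median log2 fold changes, given for nonobese and then obese mice. These were -0.99 and 0.82 for macrophage, -1.52 and 0.62 for fibroblast, -1.59 and 3.07 for adipocyte and -1.15 and 3.403 for T and NK cell markers. They were -0.23 and 0.21 for endothelial and -0.16 and 2.41 for skeletal muscle markers. The melanocytic markers ran the other way, at 0.07 and -0.05. The part of these cell types in the values of the members and of this list was not tested.

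Among the receptors, P2ry6, which responds to UDP, was at 2.698, 8.44 and 6.36 CPM in nonobese isotype tumors and at 1.93, 2.72 and 2.45 CPM with anti–PD-1. In obese mice it was at 4.67, 1.19 and 2.01 CPM with isotype and at 3.17, 6.89 and 6.71 CPM with anti–PD-1. The groups overlapped within each diet. The difference between responses was 2.36 on the log2 scale (standard error 0.69), with an FDR of 0.177 from edgeR and 0.0330 from DESeq2. The ATP and UTP receptor gene P2ry2 and the ADP receptor gene P2ry13 differed in the same direction, by 1.19 (standard error 0.51) and 2.08 (standard error 0.88), with FDR values of 0.344 and 0.339 from edgeR. Within each group, the summed macrophage markers were lowest in the same tumor as P2ry6, and so were the summed fibroblast markers. The part of these cell types in the values of P2ry6, P2ry2 and P2ry13 was not tested. P2rx3, an ATP-gated channel known from sensory neurons, went the other way, by -1.24 (standard error 0.46, FDR 0.279 from edgeR). It ranged from 4.30 to 8.33 CPM in obese isotype and from 2.51 to 5.36 CPM in obese anti–PD-1 tumors.

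Among enzymes and transporters, the surface enzyme genes Bst1 and Dpp4, the xanthine dehydrogenase gene Xdh and the nucleoside transporter gene Slc28a2 had differences between responses of 2.601, 2.81, 2.05 and 3.55 on the log2 scale. Their FDR values from edgeR were 0.232, 0.338, 0.247 and 0.266. Xdh was at 5.88, 14.6 and 14.2 CPM in nonobese isotype tumors and at 5.43, 14.02 and 15.0 CPM in obese anti–PD-1 tumors. It ranged from 4.22 to 6.82 CPM in nonobese anti–PD-1 tumors. In each of these groups the first tumor was the lowest, as for Entpd1. In obese isotype tumors Xdh ranged from 2.03 to 9.51 CPM, and the first tumor was the highest, unlike for Entpd1. Dpp4 rested on 1 to 70 counts per tumor and Slc28a2 on 1 to 71. Slc17a8, a vesicular glutamate transporter of the same solute carrier family as Slc17a9, had 4 to 28 counts per tumor. It moved the same way as Slc17a9 in nonobese mice, from 0.196 ± 0.0797 to 0.727 ± 0.456 CPM (SD, n = 3). Its difference between responses was -2.40 (standard error 0.82, FDR 0.251 from edgeR).

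**Figure D5:**
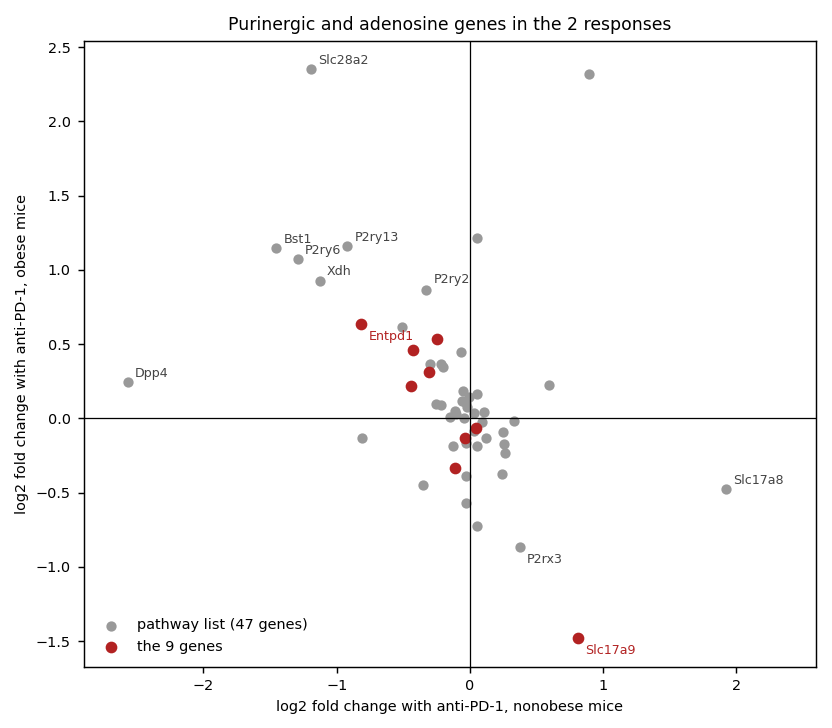
Log2 fold change with anti–PD-1 in nonobese mice (x axis) against obese mice (y axis) for the 9 genes (red) and 47 further genes of the pathway (grey), with 1 point per gene. No tumor enters both axes. Entpd1 lies at upper left (-0.82, 0.64) and Slc17a9 at lower right (0.81, -1.48), and labels mark genes past both thresholds in any comparison.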

How the data were processed

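RNA-seq libraries of 12 tumors were analysed. The authors aligned single-end reads to mm10 with STAR 2.7.0f (the submitters' processing notes) and counted them per gene with HTSeq 0.9.1. The deposited values are raw counts without normalization. The annotation and the strand setting of the counting are not given in the sources used here. Each of the 12 columns was matched to a tumor by its library name, and 0 columns were left unused.

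Counts were filtered with filterByExpr (13095 of 23420 genes kept), scaled by TMM and fitted with 4 group means in edgeR 4.0.16 under R 4.3.3. Quasi-likelihood F-tests used legacy=TRUE, with the thresholds of the study (more than 2-fold, P below 0.05 before adjustment), and Benjamini-Hochberg FDR over all genes tested. Standard errors came from the F statistic. CPM used TMM-scaled library sizes. CPM per kilobase used the exon bases of GENCODE vM21 basic transcripts (GRCm38, the assembly of mm10), which also gave coordinates. Intervals cover the spread between these tumors. The smallest two-sided exact permutation P for 3 tumors against 3 is 0.1, so no single-gene permutation test was run. The code was tested on simulated counts.

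Slc17a9 was left out of tests, intervals and counts of calls where obese tumors enter. The members and gene lists were chosen with earlier results of these data known. Named genes were the 9 members, pathway genes past both thresholds in any comparison, and the 5 genes most correlated with Slc17a9 in log2 CPM (prior count 2). Acp3 and Adgre1 were found under older symbols, and the T cell marker Trbc2 was not matched. Alternatives were DESeq2 1.42.0, RLE scaling, filters of 10 counts in every tumor or 1 count in all, the current glmQLFit, a smaller model of 6 tumors, a replicate block, and leaving out each tumor.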

Additional observations from a re-analysis of the deposited data

Results flagged for a closer look

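Slc17a9 is given here because its groups moved in opposite directions without overlap, and Entpd1 and Ada because the test of the difference between responses had an unadjusted P below 0.05, as for 12.9% of all genes tested. Slc17a9 was higher with anti–PD-1 in all treated tumors of nonobese mice, as were 5.81% of all genes tested. It was lower in all treated tumors of obese mice, as were 7%. The log2 difference between the responses was -2.29. The difference was not tested, because the gene was chosen by its fall in obese mice. Entpd1 had a log2 difference of 1.45 in the opposite direction by the test of the difference itself (unadjusted P 0.00387), which did not pass after adjustment (FDR 0.172 from edgeR) but did with DESeq2 (FDR 0.0428). Macrophage, fibroblast, adipocyte and T and NK cell markers also moved in that difference. Ada had a log2 difference of 0.62 (unadjusted P 0.0206), which did not pass after adjustment (FDR 0.296 from edgeR). Its treated and isotype tumors did not overlap in either diet. Among all genes tested, 5.37% were likewise lower in nonobese mice and 5.45% likewise higher in obese mice.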

How the results depend on the processing

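With 3 tumors per group and as few as 6 counts for a gene, the data limit what can be said of Nt5e, Adora2a and Adora2b. No member's log2 fold change turned direction under DESeq2, RLE scaling, either filter, the current glmQLFit, models of the 6 tumors compared or the replicate block, in 301 values. With the filter of 10 counts in every tumor, Adora2b was not tested. With Slc17a9 left out where obese tumors enter, the members past both thresholds were 0 in the nonobese response, the obese response, diet under isotype and diet under anti–PD-1 under each of these settings. In the difference between responses 1 passed, Entpd1, under each setting except the models of 6 tumors, which gave no value.

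Leaving out each tumor in turn, the nonobese response gave 0 to 2, with Slc17a9 and Entpd1 passing without the first nonobese isotype tumor. For the 8 genes other than Slc17a9, the ranges were 0 to 0 in the obese response and in diet under isotype, 0 to 1 in diet under anti–PD-1 and 1 to 1 in the difference between responses. The gene counted in diet under anti–PD-1 was Entpd1, without the third nonobese or the first obese anti–PD-1 tumor. Direction turned only for small changes when a tumor was left out. The ranges were -0.11 to 0.042 for Adk in the nonobese response, -0.17 to 0.022 for Adk in the difference between responses, -0.11 to 0.46 for Nt5e in the obese response and -0.41 to 0.16 for Nt5e in diet under isotype. For P2rx4 they were -0.15 to 0.022 in the obese response, -0.010 to 0.17 in diet under isotype and -0.094 to 0.0045 in diet under anti–PD-1, and for Adora2b -0.050 to 0.44 in diet under anti–PD-1.

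The counts of pathway list genes depended more on the settings than those of the members, and counts over all genes moved too. With at least 10 counts in every tumor, which tested 38 of the 71 genes, they were 2, 1, 1, 3 and 4 in the 5 comparisons, against 5, 2, 2, 6 and 9. Without a filter beyond 1 count the obese response gave 4, and with the current glmQLFit 1. Models of the 6 tumors compared gave 3 in the nonobese and 4 in the obese response. Leaving out each tumor gave 1 to 6, 0 to 6, 1 to 5, 1 to 8 and 6 to 9. The causes were not tested, beyond the smaller number of genes tested under the stricter filter.

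Groups share replicate numbers, although each tumor came from its own mouse. After removal of group means, tumors correlated at a mean of 0.133 over 18 pairs of the same number, from -0.264 to 0.563, and at -0.0623 over 36 pairs of different numbers. In the fit with a replicate block, the pathway list counts were 5, 2, 1, 6 and 8 against 5, 2, 2, 6 and 9, and the member counts past both thresholds did not change. At an unadjusted P below 0.05, the block counted 2 of the 8 members other than Slc17a9 in the obese response and 2 in diet under anti–PD-1, against 1 and 1 without it. None of the 8 had an FDR below 0.05 in the blocked fit, where the lowest was 0.487 and 0.0802 in these comparisons. The share of all genes in that fit is not given here, so these counts do not show a rise particular to the members.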
